A study of Mus musculus with 12 samples.

Results

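The hairpin against Uhrf1 was compared with a scrambled hairpin in adult mouse heart muscle cells after pressure overload, with 3 arrays on each side of the comparison. UHRF1 is a nuclear protein that binds DNA methylated on one strand only and brings DNMT1 there, so that methylation is copied after replication. Its transcript belongs to the set that dividing cells make around S phase, and adult cardiomyocytes hold little of it. Transverse aortic constriction (TAC) narrows the aorta, and the left ventricle answers the load with growth of its myocytes and, in the tissue around them, with growth of blood vessels and matrix.

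RNA of left-ventricular cardiomyocytes from male C57Bl6/J mice, labelled as 8 weeks of age, was read on Illumina bead arrays in 4 groups of 3. At 10 days of age the mice had been given AAV9, an adeno-associated virus that reaches heart muscle, with a scrambled hairpin (shControl) or hairpin number 1 against Uhrf1 (shUhrf1), and surgery followed 2 months later, which does not add up to the labelled age. TAC shControl and TAC shUhrf1 hearts were taken 1 week after constriction, and sham shControl and sham shUhrf1 hearts after the same operation without it. Virus and hairpin are thus shared within a group and every animal carried a virus, while a single hairpin sequence stood for the loss of Uhrf1. Separate animals behind the 3 arrays of a group are not stated in the labels; p-values then cover the spread between these arrays only, and that spread may be technical. No chip or scan date is given, so arrays could not be assigned to a batch.

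A probe was kept when 3 or more of the 12 arrays gave it a detection p below 0.01, which held for 15118 of 45281 probes. They named 8746 genes, each read through its probe with the highest mean, and 2017 kept probes are unnamed here. Values are normalized log2 intensities, differences are TAC shUhrf1 minus TAC shControl ± SE with n = 3 arrays a group, and a gene is said to have changed when its limma p, adjusted by Benjamini-Hochberg over all kept probes, was under 0.05. The TAC shControl arrays detected 13375 to 14544 probes and the TAC shUhrf1 arrays 14440 to 14908. Levels differ between probes for reasons of the probe, so no level is set against that of another gene. The RNA is that of a whole preparation, in which fewer cells of a type and less RNA per cell cannot be told apart. Markers of ventricular cardiomyocytes differed little between the TAC arrays: the mean deviation of 15 of them from their 12-array mean lay between -0.08 and -0.01 on the TAC shControl arrays and between -0.18 and 0.09 on the TAC shUhrf1 arrays. Among them Myh6 and Atp2a2 stood at 14.29 or above on every TAC array, where the highest kept value was 15.08. Whether differences are compressed there was not tested. The median difference of these markers, -0.03, became 0.25 with arrays scaled by their medians. Endothelial and fibroblast markers were also detected, so the preparations held RNA of other cells, and no lymphocyte marker passed the detection filter.

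Uhrf1, the target of the hairpin, was lower in the TAC shUhrf1 cells. Its level was 6.14, 7.11 and 6.89 on the TAC shControl arrays and 4.68, 5.34 and 6.06 on the TAC shUhrf1 arrays. The groups did not overlap, but the highest shUhrf1 array lay close to the lowest shControl array, and 1 of the 3 shUhrf1 arrays did not detect the probe. The difference was -1.35 ± 0.30 (adjusted p = 0.0355), or 2.56-fold, and the exact two-sided permutation test of 3 against 3 gave p = 0.1, the smallest it can give. No sham array of either hairpin detected the probe, so the sham groups cannot check the target. A second Uhrf1 probe was undetected on all 12 arrays. The probe lies near the detection limit, and the size of the difference moved with the handling of background: it was -0.87 with an offset of 50, -0.54 with no background correction and -0.33 in the authors' values. The call depended on single arrays: the adjusted p was 0.142 and 0.116 without TAC shControl replicates 2 and 3, 0.0718 and 0.0985 without TAC shUhrf1 replicates 1 and 2, and 0.0509 and 0.0523 without sham shControl replicates 2 and 3. Dnmt1, the maintenance methyltransferase, was detected on every array and its difference was 0.06 ± 0.20 (adjusted p = 0.911). Of 17 measured genes for the upkeep and reading of DNA methylation, 1, Uhrf1 itself, fell and 0 rose.

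Of the 8746 genes, 253 (2.89%) changed, of which 134 (1.53%) were higher and 119 (1.36%) lower in TAC shUhrf1 cells. At larger sizes falls outnumbered rises: 66 genes fell and 39 rose at least 2-fold, and 5 fell and 0 rose at least 4-fold. The median difference was -1.09 among genes that fell, 0.87 among genes that rose and 0.01 over all genes. All 253 genes had groups that did not overlap, as had 2088 (23.9%) of all genes, 1152 (13.2%) higher and 936 (10.7%) lower, and 1692 genes (19.3%) had an unadjusted p under 0.05. The last gene inside the threshold was Id1 at an adjusted p of 0.04989, and the first outside it was Ccng2 at 0.05003. By mean level, 48 of the 119 falls stood among the 2187 dimmest genes and 9 among the 2187 brightest, against 33 and 25 of the 134 rises. Among probes, 278 (1.84%) were higher and 167 (1.1%) lower, and of the unnamed probes 34 were higher and 14 lower. When arrays were scaled by medians rather than quantile-normalized, the median of all genes moved to 0.28 and the split became 257 higher and 45 lower. Of the calls, 132 of the 134 rises and 42 of the 119 falls were still made under that scaling, and all of them kept their direction.

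**Figure D1:**
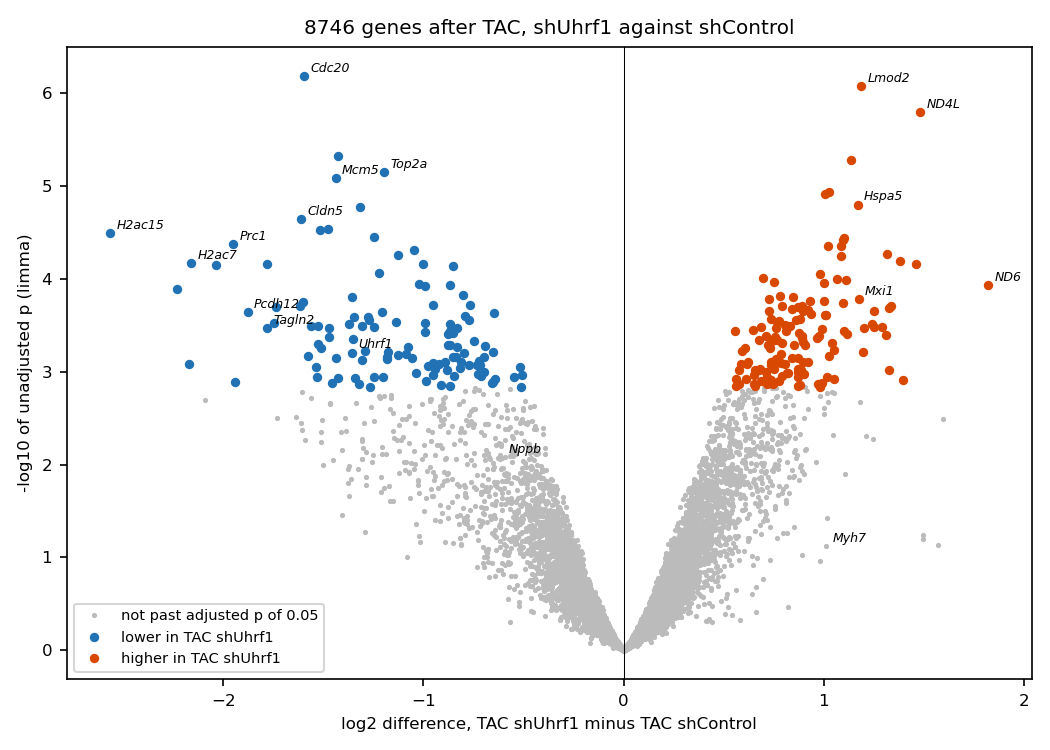
Difference of each of 8746 genes after TAC (horizontal axis, log2, shUhrf1 minus shControl) against the negative log10 of its unadjusted limma p (vertical axis). Blue points are the 119 genes that fell and orange points the 134 that rose at an adjusted p under 0.05; the falls reach -2.56 and the rises 1.82.

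The number of calls rested on few arrays. Without TAC shControl replicate 2 only 8 genes were called, without TAC shUhrf1 replicate 3 there were 11, and without TAC shUhrf1 replicate 2 or TAC shControl replicate 3 there were 34 and 36. Without sham shUhrf1 replicate 2, which enters only through the shared spread, the filter and the normalization, 383 were called. Of the 79 genes named under the rule for naming that changed, 3 were called without each of the 12 arrays in turn: Cdc20, Lmod2 and ND4L. The arrays of a group were not alike in how far they stood from the other group. TAC shControl replicate 1 was the shControl array nearest to the shUhrf1 mean in 93 of the 119 genes that fell, and TAC shUhrf1 replicate 3 was the highest of its group in 96 of the 134 genes that rose. The first principal component of the 6 TAC arrays, which held 45.0% of their variance, parted the groups. On it the shControl arrays stood at 9.9, 26.4 and 30.9 and the shUhrf1 arrays at -14.6, -22.8 and -29.8. The second component, with 19.55%, put replicate 3 of TAC shControl (-20.5) and of TAC shUhrf1 (-23.5) on its negative side. The other TAC arrays stood on its positive side. Replicate 3 of each group also had the higher median intensities before normalization, 111.3 and 112.2, above all other TAC arrays. Whether these arrays shared a batch was not tested.

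Genes of mitosis and cytokinesis fell together. Of 16 measured members of that list, 10 fell and 0 rose, where 1.36% of all genes fell. The median difference was -1.05, and 14 had all shUhrf1 arrays below all shControl arrays, against 10.7% of all genes. The list had 38 genes on the array, of which the detection filter kept these 16, and 11 of the 16 were undetected in both sham groups. A gene could pass the filter through the 3 TAC shControl arrays alone, as Top2a did. These counts are therefore not independent of the filter. The median was -0.63 with an offset of 50, -0.37 with no background correction and -0.21 in the authors' values. Of the 10, Cdca8, Birc5, Nusap1, Cdk1 and Bub1b did not pass in the authors' values (adjusted p = 0.0715 to 0.0918), and Cdca8, Nusap1, Bub1b and Kif23 did not pass with arrays scaled by their median (adjusted p = 0.0803 to 0.108). Cdc20, which switches on the anaphase-promoting complex, was at 6.35, 6.59 and 7.05 on the shControl arrays and at 4.91, 5.28 and 5.03 on the shUhrf1 arrays. It fell by 1.60 ± 0.18 (adjusted p = 0.00481), a 3.02-fold difference with a wide gap between the groups. Prc1, which bundles the microtubules of the central spindle, was at 7.30, 8.34 and 9.01 against 5.98, 6.32 and 6.51, a difference of -1.95 ± 0.32 (adjusted p = 0.0152). The shControl arrays spread over a wider range than the shUhrf1 arrays, and both groups detected the probe, while no sham array did.

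Further genes of that list fell. Top2a, the topoisomerase that untangles sister chromatids, was at 5.79, 6.18 and 6.19 on the shControl arrays and was undetected on all 3 shUhrf1 arrays, so it was at least 2.07-fold lower (adjusted p = 0.00966). Kif22, a kinesin that moves chromosome arms, was at 6.05, 6.81 and 6.80 against 5.40, 5.07 and 5.24 (-1.32 ± 0.20, adjusted p = 0.0122). Both genes were undetected on every sham array. Kif23, the motor of the central spindle, was detected on all 12 arrays, at 9.29, 9.59 and 10.04 against 8.72, 8.33 and 8.45. Birc5 and Cdca8, subunits of the chromosomal passenger complex, fell by 1.35 and 0.80. Nusap1, a spindle protein, had a difference of -0.86, Cdk1, the kinase that drives entry into mitosis, of -1.29, and Bub1b, of the spindle checkpoint, of -0.94. Cdk1 was detected on 1 of the 3 shUhrf1 arrays, and a second kept probe for Bub1b differed by -0.40 and did not pass. In the sham hearts the median difference of the 16 genes was 0.05, but 9 of the 10 that fell were undetected on all 6 sham arrays.

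The promoters of the first 6 of these genes by p are shown because mitotic genes are known to carry a short element near their start, the cell cycle genes homology region, often downstream of CCAAT boxes. Each window runs from 250 bases before to 50 bases after the RefSeq start on build GRCm38.p6, written 5′ to 3′ along the gene. Capitals mark TTTGAA on either strand (also written TTCAAA) and CCAAT on either strand (also ATTGG), and both overlap in Cdca8. Of 2 Prc1 windows in the table the first is shown.
Cdc20, chr4:118437294-118437593, - strand: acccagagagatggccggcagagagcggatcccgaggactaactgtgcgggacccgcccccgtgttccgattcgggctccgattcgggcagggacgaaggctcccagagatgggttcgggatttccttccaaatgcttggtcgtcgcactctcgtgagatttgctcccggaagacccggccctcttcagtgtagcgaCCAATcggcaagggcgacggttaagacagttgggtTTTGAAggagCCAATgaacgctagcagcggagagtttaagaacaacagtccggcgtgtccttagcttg
Top2a, chr11:99024140-99024439, - strand: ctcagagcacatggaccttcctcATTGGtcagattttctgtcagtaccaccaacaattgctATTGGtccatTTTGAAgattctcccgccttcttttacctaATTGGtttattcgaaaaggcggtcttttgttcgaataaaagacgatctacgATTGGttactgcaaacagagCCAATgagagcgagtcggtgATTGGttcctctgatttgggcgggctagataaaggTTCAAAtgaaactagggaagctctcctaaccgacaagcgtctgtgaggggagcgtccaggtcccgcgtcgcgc
Kif22, chr7:127042371-127042670, - strand: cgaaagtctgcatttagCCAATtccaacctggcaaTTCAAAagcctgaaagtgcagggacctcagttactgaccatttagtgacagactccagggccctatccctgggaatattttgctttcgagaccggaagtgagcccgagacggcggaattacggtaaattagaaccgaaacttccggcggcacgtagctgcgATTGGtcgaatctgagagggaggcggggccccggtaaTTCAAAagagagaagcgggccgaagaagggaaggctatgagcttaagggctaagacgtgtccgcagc
Prc1, chr7:80294201-80294500, + strand: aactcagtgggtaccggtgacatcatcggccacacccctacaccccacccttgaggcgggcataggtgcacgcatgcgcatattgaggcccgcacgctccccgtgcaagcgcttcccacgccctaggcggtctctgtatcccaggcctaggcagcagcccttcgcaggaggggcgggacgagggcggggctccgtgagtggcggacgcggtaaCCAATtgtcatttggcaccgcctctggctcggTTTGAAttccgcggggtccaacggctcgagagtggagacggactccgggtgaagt
Cdca8, chr4:124936868-124937167, - strand: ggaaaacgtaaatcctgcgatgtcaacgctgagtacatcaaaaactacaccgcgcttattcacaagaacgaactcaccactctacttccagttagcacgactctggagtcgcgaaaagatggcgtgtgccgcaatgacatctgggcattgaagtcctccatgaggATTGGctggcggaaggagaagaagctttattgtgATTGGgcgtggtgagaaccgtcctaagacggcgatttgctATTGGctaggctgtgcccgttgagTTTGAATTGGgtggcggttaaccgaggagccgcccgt
Kif23, chr9:61946750-61947049, - strand: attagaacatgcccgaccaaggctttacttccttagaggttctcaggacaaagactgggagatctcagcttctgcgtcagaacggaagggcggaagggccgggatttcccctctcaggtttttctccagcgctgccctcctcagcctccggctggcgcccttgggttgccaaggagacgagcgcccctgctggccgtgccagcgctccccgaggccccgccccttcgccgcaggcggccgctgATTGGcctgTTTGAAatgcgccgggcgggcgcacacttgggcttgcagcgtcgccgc

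All 6 windows held CCAAT, and all 6 held TTTGAA, whose copy nearest to the start began between -23 and 14 bases from it. The letters TTTGAA on either strand were in 18.1% of 27025 promoters, 1 per gene, and in 11.4% of the 7130 tested genes with a promoter in the table. They were in 12 of the 16 measured genes of mitosis and cytokinesis, in 25.3% of 99 genes that fell and in 9.26% of 108 genes that rose. The 99 include the 10 genes of mitosis and cytokinesis that fell, 8 of them with TTTGAA, so these shares overlap. CCAAT was in 37.9% of all promoters, in 40.4% of those of genes that fell and in 38% of those of genes that rose. Of the 16 genes of mitosis and cytokinesis 11 held it. These letters were chosen after the lists and their values were known, and a match describes the sequence only.

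Of the genes of DNA replication 1 changed. Among 26 measured members, with a median of -0.18, 1 fell and 0 rose, where 1.36% of all genes fell and 1.53% rose. That gene was Mcm5, a subunit of the replicative helicase, at 6.51, 7.24 and 7.21 on the shControl arrays and 5.26, 5.55 and 5.84 on the shUhrf1 arrays (-1.44 ± 0.20, adjusted p = 0.00966). Its groups stood well apart and no sham array detected it. Tk1 and Tyms, which make thymidine nucleotides, had differences of -0.90 and -0.95 that did not pass (adjusted p = 0.064 and 0.066). Of 13 cyclins, CDKs and CDK inhibitors of G1, 1 fell: Ccnd1, cyclin D1, was at 9.58, 10.55 and 10.70 against 8.79, 8.99 and 8.98 (-1.36 ± 0.26, adjusted p = 0.0239). Of 13 measured p53 targets 0 passed, and the difference of Cdkn1a, the CDK inhibitor p21, was 0.13.

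The 5 largest falls among the genes that passed were H2A histone genes. H2ac15 was at 6.80, 8.79 and 8.79 on the shControl arrays and at 5.54, 5.89 and 5.26 on the shUhrf1 arrays, a difference of -2.56 ± 0.41 (adjusted p = 0.0146), or 5.91-fold. H2ac22, H2ac12, H2ac7 and H2ac24 differed by -2.23, -2.17, -2.16 and -2.04. In each of the 5, TAC shControl replicate 1 stood well below the other shControl arrays yet above all shUhrf1 arrays. The H2A genes are near-identical copies, so these values are uncertain as separate observations, and whether their probes read each other's transcripts was not tested. Of 10 H2A genes in a group drawn up after the values were seen, 5 fell (H2ac13, with -0.99, beside 4 of those above; H2ac24 stood outside the list), with a median of -0.97. Of 9 H2B, 8 H3, 8 H4 and 1 H1 genes grouped likewise, 0 changed, with medians of -0.03, 0.11, -0.09 and 0.40, and the H2B and H4 medians turned positive with arrays scaled by their median.

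**Figure D2:**
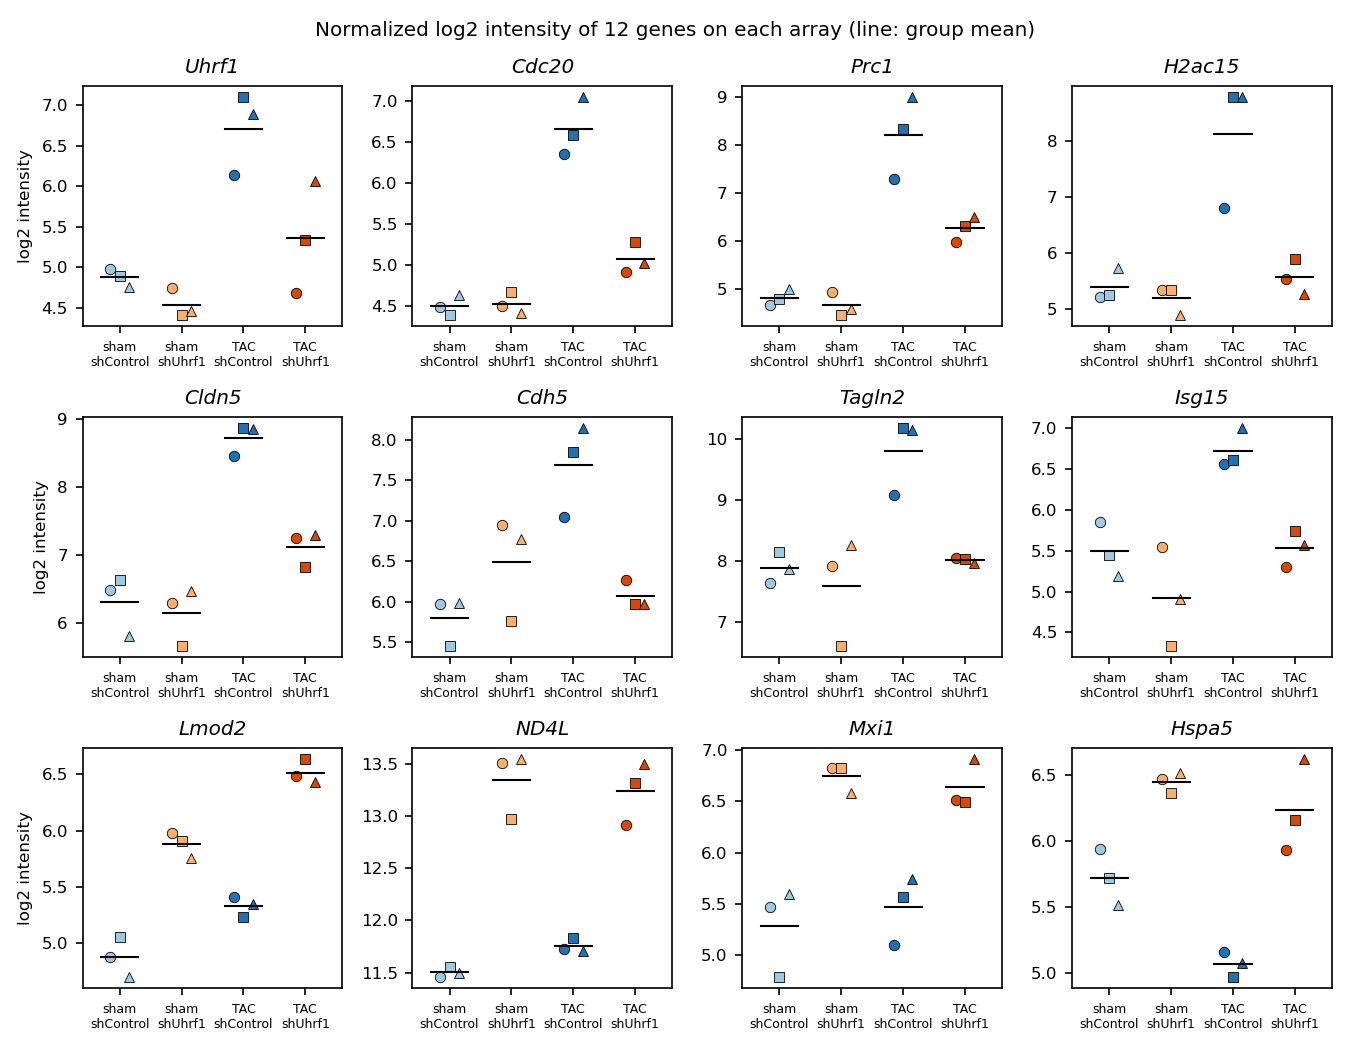
Normalized log2 intensity (vertical axes) of 12 genes on each of the 12 arrays, by group (horizontal axes), with circles, squares and triangles for replicates 1, 2 and 3 and a line at each group's mean. Uhrf1, Cdc20, Prc1, H2ac15, Cldn5, Cdh5, Tagln2 and Isg15 were lower in TAC shUhrf1 than in TAC shControl; Lmod2, ND4L, Mxi1 and Hspa5 were higher after TAC and stood higher with the hairpin in sham too.

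Endothelial genes were lower in TAC shUhrf1 cells. Of 27 measured endothelial markers, 6 fell and 0 rose, where 1.36% of all genes fell. The median difference was -1.29, and 21 had groups that did not overlap, all lower, against 10.7% of all genes. The median was -0.61 in the authors' values, where Pcdh12 and Tie1 did not pass (adjusted p = 0.0595 and 0.0714), and Cd93 did not pass with arrays scaled by their median (adjusted p = 0.0752). Cldn5, a claudin of endothelial tight junctions, was at 8.46, 8.87 and 8.86 on the shControl arrays and at 7.25, 6.82 and 7.29 on the shUhrf1 arrays (-1.61 ± 0.25, adjusted p = 0.0138). Cdh5, the cadherin of endothelial junctions, was at 7.05, 7.86 and 8.15 against 6.27, 5.97 and 5.97 (-1.62 ± 0.32, adjusted p = 0.0247). Neither gene's groups overlapped. Pcdh12 (-1.88), a protocadherin, Icam2 (-1.78), an adhesion molecule, Cd93 (-1.54) and the receptor Tie1 (-1.13) fell as well. Pecam1, the adhesion molecule CD31, and Gpihbp1, which carries lipoprotein lipase across capillary cells, differed by -1.34 and -2.09 and did not pass (adjusted p = 0.06 and 0.058). In sham hearts the median difference of the 27 markers was 0.25, or 0.18 with the 5 markers undetected on a sham group at their bound, and 0 passed there in either direction.

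The summed level of the endothelial markers moved with the groups, array by array. Its mean deviation from the 12-array mean was 0.51, 1.13 and 1.37 on the TAC shControl arrays and -0.22, -0.33 and 0.05 on the TAC shUhrf1 arrays. The same deviation for the 16 genes of mitosis and cytokinesis was 0.52, 1.07 and 1.32 against -0.03, 0.03 and 0.07. Both lists thus put the TAC arrays in nearly the same order, with shControl replicate 1 nearest to the shUhrf1 arrays. The part of the endothelial markers in the fall of the mitotic, histone, matrix and cytoskeletal genes was not tested. With the endothelial deviation of each array as a covariate, an alternative added after the data were seen, ND4L was the only gene called, and the medians were 0.01 for the endothelial markers, -0.69 for mitosis and cytokinesis, -0.94 for the H2A genes and 0.12 for the matrix. The covariate was built from these same endothelial markers, so their own median of 0.01 follows from its construction. All 51 named genes that fell kept a negative difference in that fit. They were chosen by their fall on these same arrays, so the kept signs say little, and of all 119 falls 0 were still called. The medians of the fibroblast markers and the antigen presentation genes turned from -0.54 and -0.38 to 0.36 and 0.40. The covariate itself separated the TAC groups without overlap.

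**Figure D3:**
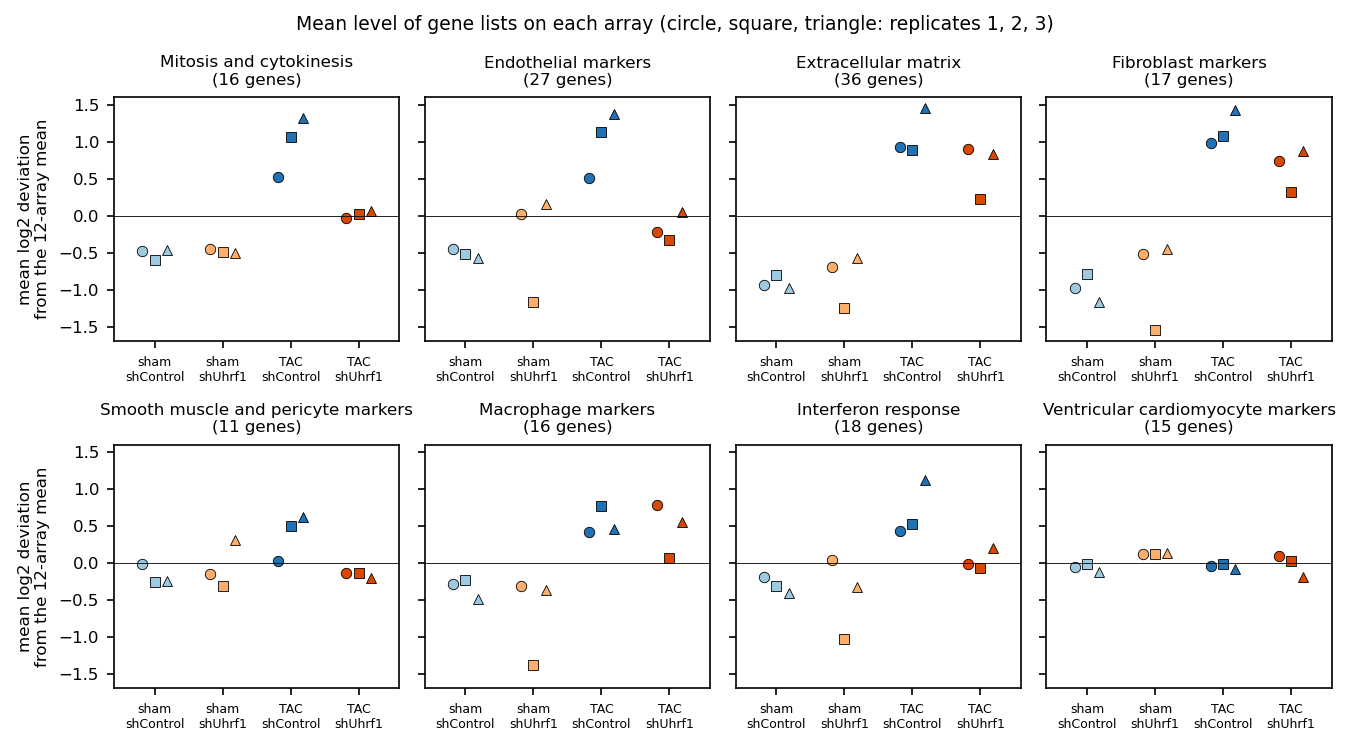
Mean log2 deviation of 8 gene lists from their 12-array mean (vertical axes) on each array, by group (horizontal axes), with circles, squares and triangles for replicates 1, 2 and 3. Endothelial and mitotic genes stand lower on all TAC shUhrf1 arrays than on all TAC shControl arrays, while ventricular cardiomyocyte markers lie between -0.18 and 0.14 on every array.

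Markers of other non-myocyte cells did not pass. Of 17 fibroblast markers 0 passed in either direction, with a median of -0.54, and their deviation was 0.99, 1.08 and 1.43 on the TAC shControl arrays and 0.75, 0.32 and 0.88 on the TAC shUhrf1 arrays. Yet 16 of the 17 differences were below 0. In 8 of the 17 all shUhrf1 arrays lay below all shControl arrays, against 10.7% of all genes. Vim, the intermediate filament vimentin, differed by -1.31 (adjusted p = 0.094) and Col3a1, a fibrillar collagen and the only one above 0, by 0.73 (adjusted p = 0.25). Of 11 smooth muscle and pericyte markers 0 passed, though 10 were below 0 and 3 had all shUhrf1 arrays below all shControl arrays. Their median was -0.46, and Rgs5, a pericyte regulator of G proteins, differed by -1.61 (adjusted p = 0.082). Of 16 macrophage markers 0 passed, with a median of -0.11, and their deviations overlapped between the groups. Of 2 neutrophil, 4 red cell and platelet, 6 atrial and 2 nerve markers 0 passed.

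Some matrix genes fell, among them genes of basement membranes, the sheets under endothelium and around myocytes. Of 36 measured matrix genes 4 fell and 0 rose, where 1.36% of all genes fell, and the median was -0.58. The 4 were Col15a1, Col4a2, Col6a2, a subunit of microfibrillar collagen VI, and Serpinh1, a collagen chaperone. Col15a1, a collagen of basement membrane zones, was at 7.52, 8.25 and 8.73 on the shControl arrays and 6.81, 6.36 and 6.65 on the shUhrf1 arrays (-1.56 ± 0.32, adjusted p = 0.0284). Col4a2, a chain of the collagen network of basement membranes, was at 10.79, 11.30 and 11.53 against 10.65, 10.27 and 10.06 (-0.88 ± 0.21), with its groups separated by a small gap. Col1a1, the main fibrillar collagen, was at 8.5, 8.22 and 8.64 against 8.29, 7.33 and 7.88, which overlapped (-0.62 ± 0.28, adjusted p = 0.25). In a basement membrane group drawn up after the values were seen, 5 of 15 genes fell, which adds Tinagl1 (-1.52), the linker Nid2 (-1.35) and the proteoglycan Agrn (-0.87). The median of the matrix list was -0.22 with arrays scaled by their median.

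The remaining falls included cytoskeletal, adhesion and signalling genes. Tagln2, a calponin-related actin binder, was at 9.08, 10.18 and 10.15 on the shControl arrays and at 8.06, 8.03 and 7.96 on the shUhrf1 arrays, which were tight and close to the sham means of 7.89 and 7.59 (-1.78 ± 0.37, adjusted p = 0.0284). In a group of 38 nonmuscle actin genes, again drawn up after the values were seen, 12 fell and 1 rose, with a median of -0.60. For this and the next groups, the shares over all genes were 1.36% lower and 1.53% higher. Among them were Lasp1 (-1.51), Fscn1, the bundler fascin (-1.47), Coro1c, a coronin (-1.21), Tpm2, a tropomyosin (-1.09) and Actn4, a nonmuscle actinin (-0.95). Of 10 Notch pathway genes chosen in the same way 3 fell: Notch4, the endothelial receptor (-1.58), Nrarp, a feedback inhibitor (-1.18), and Dtx2, a deltex ligase (-0.72). A second kept probe for Dtx2 differed by -0.32 and did not pass. Of 10 caveolar genes 2 fell, Cav2 (-1.25) and Cavin3 (-0.99), and of 3 GIMAP GTPases 2 fell, Gimap6 (-1.60) and Gimap1 (-1.37). Spon2, a secreted matrix protein, was at 6.35, 7.80 and 8.92 against 5.61, 5.79 and 5.84 and also had the lowest sham difference among the largest falls, -1.09 (adjusted p = 0.32 in sham). Sema7a, a semaphorin, and Prkd2, a protein kinase D, fell by 1.75 and 1.74.

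Few immune genes passed. Of 18 measured interferon response genes 1 fell and 0 rose, though all 18 differences were below 0, with a median of -0.57. Isg15, a ubiquitin-like modifier induced by interferon, was at 6.56, 6.61 and 7.0 on the shControl arrays and at 5.30, 5.74 and 5.57 on the shUhrf1 arrays (-1.18 ± 0.27, adjusted p = 0.0376). Of 18 antigen presentation genes 0 fell and 1 rose, which was Ctss, the protease cathepsin S, at 5.44, 4.81 and 5.42 against 6.57, 5.62 and 6.63 (1.05 ± 0.25, adjusted p = 0.0448). Of 18 cytokines, chemokines and acute phase genes 0 passed, and Cxcl2 and Il1b had differences of 1.6 and 1.21 (adjusted p = 0.071 and 0.088). With the endothelial deviation as a covariate the interferon median was 0.16.

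Genes that DNA methylation is known to hold silent or to mark by parent did not pass. Of 8 measured imprinted genes 0 passed in either direction, with a median of -0.46, and 11 of the list's genes on the array were below the detection filter. Cdkn1c, an imprinted CDK inhibitor, was at 7.79, 7.80 and 7.95 on the shControl arrays and at 6.77, 6.76 and 7.34 on the shUhrf1 arrays, apart but short of the threshold (-0.90 ± 0.32, adjusted p = 0.145). Of 19 germline genes on the array that methylation silences in other tissues, 3 were measured and 0 passed. Mov10l1, a helicase of the germline piRNA pathway whose locus also gives a heart transcript, was at 9.21, 9.30 and 9.01 against 9.67, 9.56 and 9.45 (0.39 ± 0.14, adjusted p = 0.138).

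Of growth factor and hypoxia genes 1 changed, where 2.89% of all genes did. Among 19 measured genes of the TGF-beta pathway 1 rose and 0 fell, with a median of -0.05 that became 0.23 with median scaling. That gene was Bmpr1a, a type I receptor for bone morphogenetic proteins, at 8.53, 8.47 and 8.50 on the shControl arrays and 9.08, 9.27 and 9.20 on the shUhrf1 arrays (0.68 ± 0.16, adjusted p = 0.0412). Its groups were each tight and stood apart, but its second kept probe differed by 0.28 and did not pass. Eng, the endothelial co-receptor endoglin, and Ltbp4, which binds latent TGF-beta in the matrix, differed by -1.41 and -1.46 and did not pass (adjusted p = 0.103 and 0.0606). Of 16 angiogenic ligands and hypoxia genes 0 passed, with a median of -0.10 that became 0.28 in the same way, and Pdgfb, which recruits pericytes, differed by -1.30 (adjusted p = 0.101). Of 13 circadian, 19 antioxidant and metallothionein, and 13 ATF4 and amino acid stress genes 0 passed, with medians of 0.25, 0.11 and 0.01, and Nr1d2, a clock repressor, differed by 0.98 (adjusted p = 0.056).

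ND6 and ND4L were the largest rises among the genes that passed. ND4L, a complex I subunit of the mitochondrial genome, was at 11.73, 11.83 and 11.71 on the shControl arrays and at 12.91, 13.31 and 13.49 on the shUhrf1 arrays (1.48 ± 0.18, adjusted p = 0.00481). ND6, another such subunit, was at 6.36, 7.14 and 5.49 against 8.00, 8.51 and 7.94 (1.82 ± 0.34, adjusted p = 0.0198). Their groups stood far apart, but of 8 measured genes of the mitochondrial genome those 2 alone rose and the median was -0.06, or 0.24 with median scaling. Of all genes 1.53% rose, and the nuclear complex I list gave 1 rise among 34, Ndufb4 (1.33), with a median of -0.02. Complexes II to V gave 2 rises among 35, Sdhd (0.86), which anchors succinate dehydrogenase, and Atp5a1 (1.07), a subunit of ATP synthase, and a median of 0.03. A second kept probe for Atp5a1 differed by 0.02, so its probes disagree. Among 20 genes of the tricarboxylic acid cycle and pyruvate dehydrogenase, a group drawn up after the values were seen, Dld (1.20), Idh2 (0.84) and Sdhd rose. Of 29 genes of fatty acid oxidation 0 passed, and of 18 of glucose uptake and glycolysis 0 passed.

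Lmod2, leiomodin 2, which sets the length of thin filaments in heart muscle, was at 5.41, 5.23 and 5.35 on the shControl arrays and at 6.48, 6.64 and 6.43 on the shUhrf1 arrays (1.19 ± 0.14, adjusted p = 0.00481). The arrays of each group lay within a narrow range, and Lmod2 was the only one of 19 sarcomere genes that passed. Mxi1, a MAX partner known as an antagonist of MYC, was at 5.10, 5.56 and 5.74 against 6.52, 6.49 and 6.92 (1.17 ± 0.22, adjusted p = 0.0239), the only one of 9 measured members of the MYC, MAX and MXD network to pass. Hspa5, the chaperone BiP of the endoplasmic reticulum, was at 5.16, 4.97 and 5.08 against 5.93, 6.16 and 6.62 (1.17 ± 0.18, adjusted p = 0.012), the only one of 16 chaperones of that compartment to pass. On TAC shControl replicates 1 and 2 Hspa5 lay below the lowest detected signal of the array, 5.22 and 5.14. Mxi1 did so on replicate 1. The sizes of both rises thus include levels near the detection limit. Of 32 heat shock chaperones 5 rose, where 1.53% of all genes rose, but the median of the 32 was 0.01. The 5 were the prefoldin subunit Vbp1 (1.31), Hsp90aa1 (1.04), Cacybp (0.97), Hspe1 (0.77) and Hspa4l (0.73). Of 27 proteasome subunits Psmd6 rose by 1.29 and Psmc6, undetected on all TAC shControl arrays, was at least 1.44-fold higher. These last lists were drawn up after the values were seen.

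Other large rises were Ppip5k2 (1.46), an inositol pyrophosphate kinase, Ktn1 (1.39), kinectin, Nkiras1 (1.38), an inhibitor of NF-kappa-B signalling, Nampt (1.34), which makes the precursor of NAD, Zc3h6 and Morf4l1b (both 1.32), Tecrl (1.25), a reductase-like protein of heart muscle, Slc25a13 (1.25), the aspartate and glutamate carrier citrin, and Huwe1 (1.24), a ubiquitin ligase. Second kept probes differed by 0.23 for Slc25a13 and 0.25 for Huwe1 and did not pass, so their probes disagree. Ktn1 was detected on 1 of the 3 TAC shControl arrays, and Morf4l1b and Tecrl on 2 of them, so the sizes of these rises include levels near the detection limit. Ktn1 was still called in 3 of the 12 fits that left out an array. Nampt was at 8.05, 8.28 and 7.72 on the shControl arrays and at 9.08, 9.04 and 9.94 on the shUhrf1 arrays. In it, as in most genes that rose, shUhrf1 replicate 3 stood highest. Genes with further kept probes allowed a check. For 40 genes that rose, 37 of 47 further kept probes had the same sign and 4 passed, with a median of 0.25, and for 31 genes that fell, 40 of 42 had the same sign and 12 passed, with a median of -0.69.

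The genes by which hypertrophy is usually read did not pass the test. Nppa, the atrial natriuretic peptide, was at 14.79, 14.80 and 14.88 on the TAC shControl arrays and at 14.82, 14.97 and 14.73 on the TAC shUhrf1 arrays (0.02 ± 0.29, adjusted p = 0.985), and the groups overlapped. Nppb, the B-type peptide, was at 13.88, 14.15 and 14.58 against 13.72, 13.68 and 13.38, which did not overlap, and did not pass (-0.61 ± 0.20, adjusted p = 0.112). Myh7, the slow myosin heavy chain, was at 9.90, 8.86 and 9.33 against 11.75, 9.02 and 10.35, a wide spread with overlap (1.01 ± 0.52, adjusted p = 0.312). Myh6, Acta1 and Atp2a2, the adult myosin heavy chain, skeletal actin and the calcium pump SERCA2, differed by -0.06, -0.12 and -0.01. These probes and that of Nppa stood at 14.29 or above on every TAC array, where the highest value of any kept probe was 15.08, and whether a difference is compressed there was not tested. Dnmt3a, a methyltransferase that sets new methylation, did not pass the detection filter. Of 19 hypertrophic and fetal genes, 22 of calcium handling and ion channels and 18 immediate early genes 0 passed, and Fos and Egr1 lay just outside (0.75 and 0.76, adjusted p = 0.05 for both). Of 50 cytosolic ribosomal proteins 0 passed, with 25 lower on all shUhrf1 arrays, against 10.7% of all genes, and a median of -0.20 that became 0.14 with arrays scaled by their median. The medians of the hypertrophy, sarcomere, complex I, histone, macrophage and ventricular cardiomyocyte lists also turned from below 0 to above it under that scaling, at 0.12, 0.31, 0.33, 0.23, 0.17 and 0.25.

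**Figure D4:**
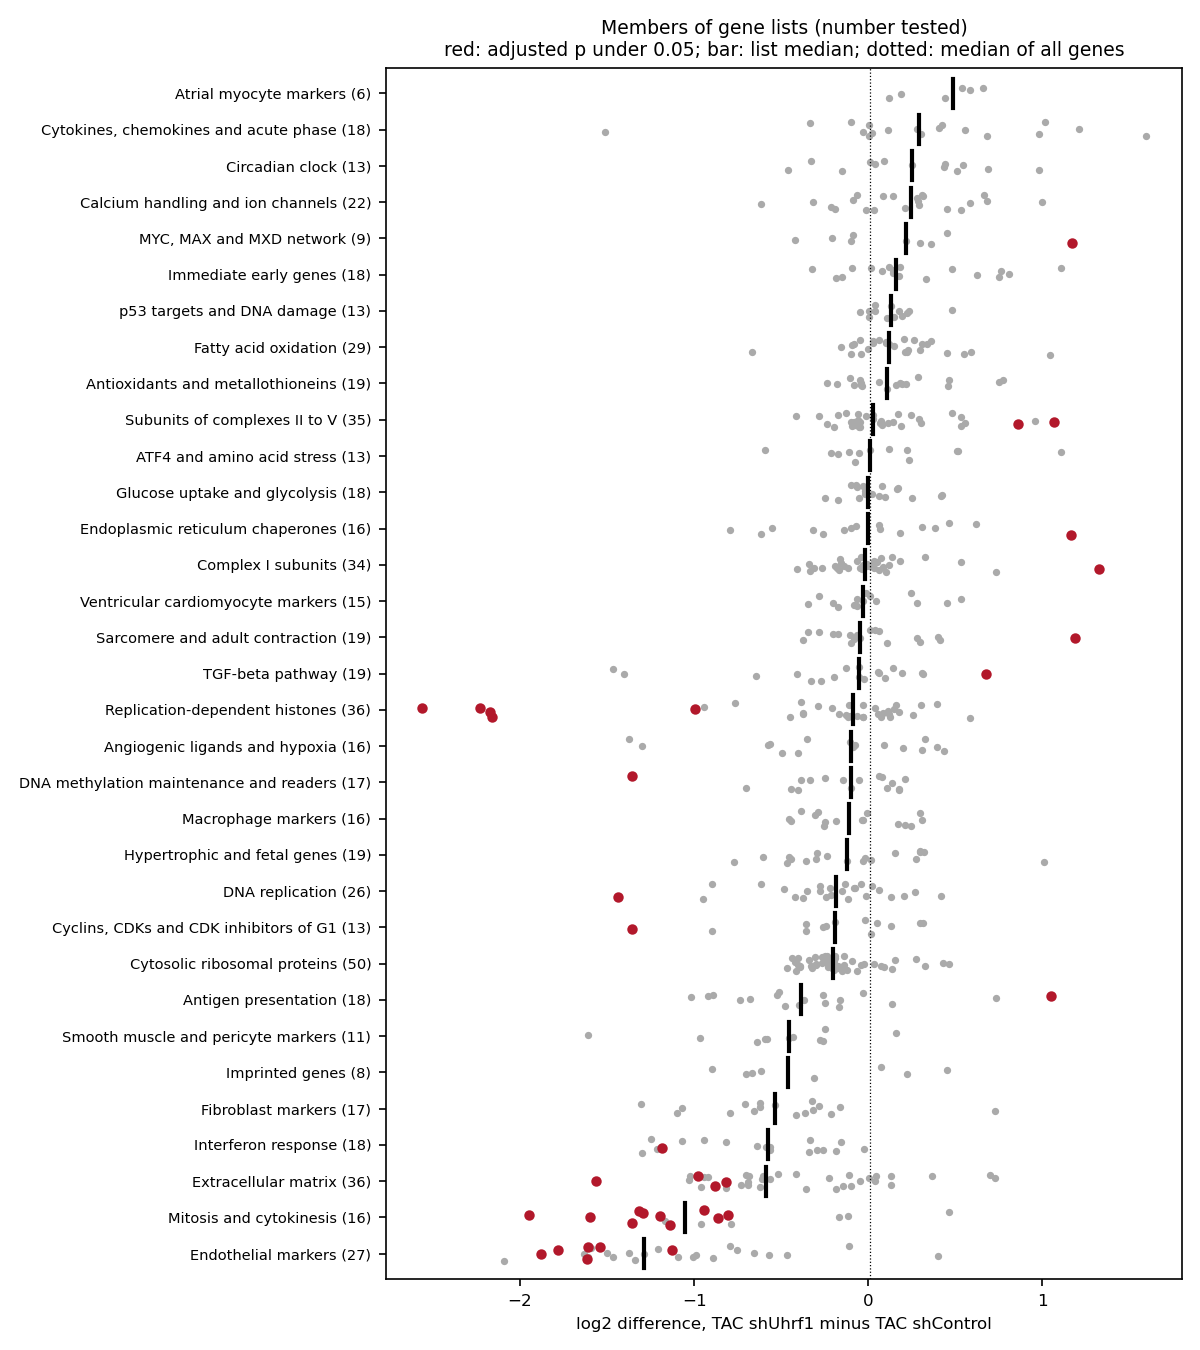
Differences after TAC (horizontal axis, log2, shUhrf1 minus shControl) of the measured members of each gene list with 5 or more of them (vertical axis, number tested in parentheses), ordered by list median. Red points passed an adjusted p of 0.05, black bars are list medians and the dotted line is the median of all genes, 0.01; endothelial and mitotic genes lie farthest to the left, with medians of -1.29 and -1.05.

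The sham arrays, which share no array with the TAC difference, gave 4 genes (0.0457%) that rose with the hairpin and 0 that fell, with 1154 genes at an unadjusted p under 0.05. The 4 were Asns, Lmod2, Mxi1 and ND4L, and the last 3 rose after TAC too. Lmod2, undetected on all sham shControl arrays, was at least 1.44-fold higher in sham (adjusted p = 0.017), Mxi1 differed by 1.47 (adjusted p = 0.048) and ND4L by 1.84 (adjusted p = 0.0021). Of the 134 genes that rose after TAC, 122 (91.0%) had a difference above 0 in sham, as had 49.6% of all genes, and their median sham difference was 0.44. With the 20 of them that were undetected on a whole sham group at their bound the median was 0.39. Of the 119 that fell after TAC, 54 (45.4%) were below 0 in sham, with a median of 0.03, but 39 of the 119 were undetected on all sham shControl arrays. Over all genes the 2 differences had a Pearson r of 0.24 and a Spearman rank correlation of 0.28 (genes are not independent, and no p is given).

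The difference of the differences, TAC against sham, passed for 0 genes with limma, with 866 (9.9%) at an unadjusted p under 0.05. The lowest adjusted p was 0.162, for Cdc20. Of the genes that fell after TAC 104 of 119 were among the 866, and of those that rose 45 of 134. These genes were picked by their TAC difference, which is a part of this contrast. The choice itself raises such shares, so they do not show that a difference is particular to TAC. The count of genes that passed depended on 2 arrays. Without TAC shControl replicate 1, 27 genes passed, all more negative after TAC. Without sham shUhrf1 replicate 2, 98 passed, of which 95 were more negative after TAC and 16 were endothelial markers. That sham array had the lowest endothelial deviation of all 12, at -1.17, and was low in fibroblast and macrophage markers as well, at -1.55 and -1.38.

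**Figure D5:**
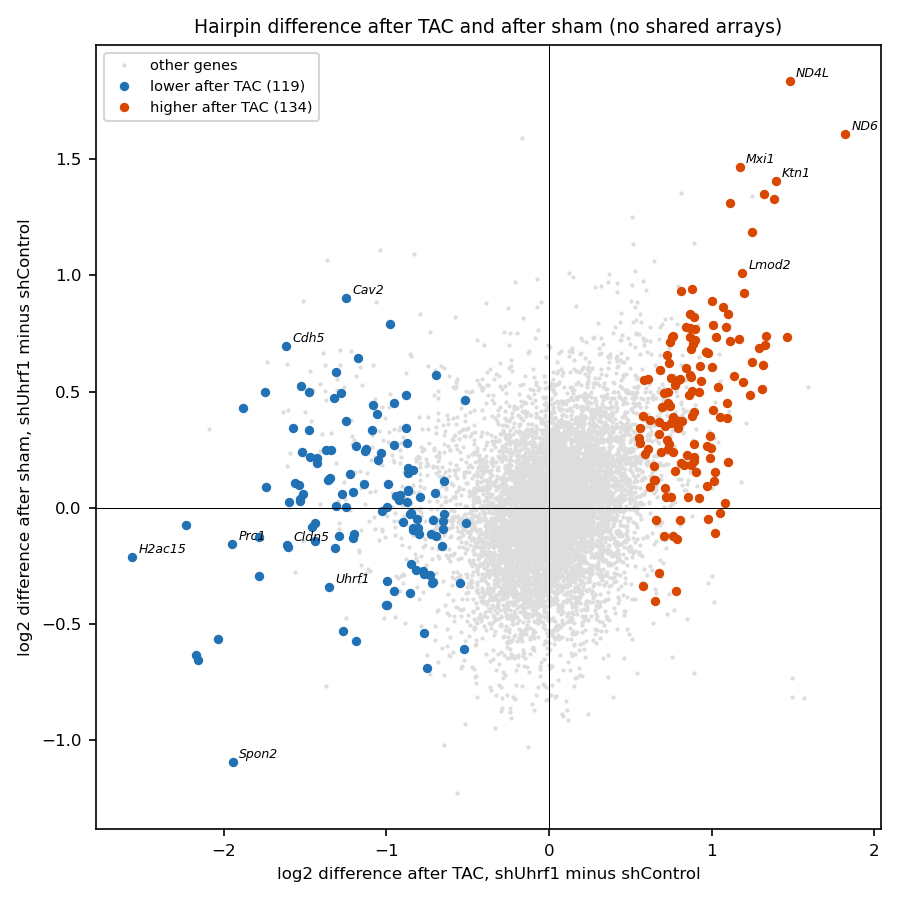
Difference between the hairpins after TAC (horizontal axis, log2) against that after sham (vertical axis, log2) for 8746 genes. Most of the 134 genes that rose after TAC (orange) lie above 0 in sham, with a median of 0.44, while the 119 that fell (blue) lie on both sides of 0, with a median of 0.03.

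The genes that fell were mostly genes that had risen with TAC under the scrambled hairpin, a comparison that uses the same TAC shControl arrays and so is not independent. Of the 119, 103 (86.6%) had risen there, against 11.4% of all genes. Of the 134 that rose with the Uhrf1 hairpin, 26 (19.4%) had fallen with TAC under the scrambled hairpin, against 7.47% of all genes, and 4 had risen. With genes undetected on a whole group at their bound, the median response to TAC under the scrambled hairpin was 0.83 for the genes of mitosis and cytokinesis, 1.66 for the endothelial markers, 1.98 for the matrix and 0.93 for the hypertrophic genes. For mitosis and cytokinesis 12 of the 16 genes entered as such bounds, and for the matrix 12 of 36. The median differences between the hairpins after TAC, treated alike, were -1.0, -1.29, -0.58 and -0.12.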

How the data were processed

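RNA of 12 cardiomyocyte preparations was measured on Illumina arrays, 3 in each of 4 groups, and the samples were grouped by their titles. The authors deposited an intensity per probe and array, not normalized, on a linear scale. With each intensity the authors deposited its detection p-value, on a grid of 936 steps. A table of log2 values, equal in distribution on every array, was made by the authors. The tool lumi is listed in the submitters' processing notes without version or settings. That table served as an alternative.

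Intensities were processed here with limma's neqc, which infers background from detection p-values, followed by quantile normalization after an offset of 16. A limma model (version 3.58.1, R 4.3.3) with a mean per group covered all 12 arrays, with eBayes moderation, and p-values were adjusted over 15118 probes. Gene symbols came from the platform annotation held by GEO, updated by gene ID: 34885 of 45281 had 1 symbol, 18 had several and 10378 are unnamed here. For a gene undetected on a whole group the fold is a bound: the dim group's level on each array was raised to that array's lowest detected signal where it lay under it. The number of arrays limits the precision, and the depth of an array is read only as its count of detected probes.

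The genes named are Uhrf1, preset genes of methylation and hypertrophy, the 15 largest rises and 15 largest falls that passed without overlap between groups, and from each list up to 8 members by p plus all that passed where these were few, with the added lists treated alike. The naming rule, the 39 lists and the tests were chosen with earlier results of these data known. A further 14 lists, the endothelial covariate and the promoter motifs were added after values were seen, and Asns, Id1, Ccng2, Pcmtd2, Vps26b and Olfr267 were named after their values were seen. Of 973 listed genes 889 were on the array and 654 were tested. Promoter sequences are RefSeq's, build GRCm38.p6, matched by gene ID for 7130 of 8746 genes. The array files name no build, so no other coordinates are given. The scripts were tested on simulated data. The replicate numbers were not taken to pair arrays, because they are not said to do so. Deviations of same-numbered TAC arrays correlated at 0.05, 0.12 and 0.19, and those of differently numbered TAC arrays at -0.24 to 0.14. Same-numbered arrays of other groups gave both signs. These values do not settle whether the numbers pair arrays. Alternatives were background correction, scaling, offset, detection filters, the arrays in the fit, the variance model, array weights, the probes of a gene, the replicate block and leaving out each array.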

Additional observations from a re-analysis of the deposited data

How the results depend on the processing

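Of the 253 calls, those tested kept their sign under the alternatives run, except 1 rise each with the mean over a gene's probes, without TAC shControl replicate 2 and without TAC shUhrf1 replicate 2. All 253 had groups that did not overlap. Leaving out 1 array could thus turn a sign only through the normalization or the choice of probe, and kept signs there say little. The counts moved. Scaling arrays by their median gave 257 higher and 45 lower, an offset of 50 gave 393 genes with 200 lower, and no detection filter gave 55 genes, 29 higher and 26 lower. Requiring detection on all 12 arrays gave 71 lower and left Uhrf1 untested. Fitting the TAC groups alone gave 66 higher, and eBayes with a trend and robust moderation gave 388 genes with 218 higher. The endothelial covariate gave 1 gene, ND4L, 1 higher and 0 lower. Uhrf1 missed the threshold in the authors' values at -0.33 (adjusted p = 0.0509), without the detection filter at -1.35 (adjusted p = 0.112), with the TAC groups alone at -1.35 (adjusted p = 0.0676) and with the covariate at -0.79 (adjusted p = 0.548). Without the detection filter 1 gene, Olfr267, passed the comparison of TAC with sham differences. Apart from the construction of each alternative, the cause of these moves was not tested.

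Leaving out 1 array at a time gave 8 to 383 genes, 5 to 182 higher, 1 to 227 lower, 0 to 98 genes that differed between TAC and sham, and -1.66 to -1.01 for Uhrf1 with adjusted p from 0.0192 to 0.142. Without TAC shControl replicate 2 the single gene called lower was Cdc20. Without TAC shUhrf1 replicate 3 the 5 called higher were Hspa5, Lmod2, ND4L, Pcmtd2 and Vps26b. An arm left with 2 arrays borrows its spread from the other groups. The fit with a replicate block gave 215 genes, 111 higher and 104 lower, -1.35 for Uhrf1 (adjusted p = 0.0401) and 0 genes for the comparison of TAC with sham differences. The numbers were not taken to pair the arrays. Dim probes near the detection limit, which include Uhrf1 and most mitotic genes, limit what can be read in the sham groups.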
